A study of Homo sapiens with 21 samples.

Results

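10 immediate early genes of HepG2 cells were followed across 7 caffeine doses: FOS, FOSB, FOSL1, JUN, JUNB, EGR1, NR4A1, DUSP1, IER2 and ATF3. They were taken by gene symbol, matched through the Ensembl identifiers of the count table, and were 10 of its 32937 features with such an identifier. All 10 passed the filter on low counts, and each had 55 to 2610 reads in every library. HepG2 is an established human hepatocellular carcinoma line. Cells received caffeine at 0.01, 0.1, 1, 10, 100 or 1000 µM, or none (0 µM, the control), for 24 h, with 3 biological replicates per group and 21 libraries of poly(dT)-selected RNA. In all 7 groups, the control included, serum-containing medium was replaced by serum-free DMEM at the start of the 24 h, and the cells were detached with trypsin-EDTA before RNA was extracted. The comparisons ask at which caffeine doses the level of each transcript differed from control after 24 h. Earlier times were not analysed here.

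Immediate early genes are transcribed within minutes of a growth factor, cAMP or stress signal by transcription factors that are already present, and most of their mRNAs are short-lived. FOS and JUN family proteins pair through leucine zippers to form the AP-1 transcription factor, EGR1 is a zinc finger factor, NR4A1 is an orphan nuclear receptor, and ATF3 is a basic leucine zipper factor of the ATF/CREB family that is induced by stress. MAP kinases reach these promoters through ELK factors and serum response factor at CArG boxes, and protein kinase A through CREB at cAMP response elements. In liver, the group is known for its rapid rise after partial hepatectomy.

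The promoter sequences of 5 genes are shown so that members that rose and some that fell can be read side by side. Of the 10 genes, 9 were matched in the table of RefSeq promoters (GRCh38.p14) used here, FOSL1 not among them, and each sequence is the 250 bases before the annotated start, written 5′ to 3′ on the gene's strand. Capitals mark the core of the cAMP response element (TGACG, searched on both strands, so also read as CGTCA) and the CArG box, also searched on both strands. EGR1 and ATF3 rose at 1000 µM with and without the library set (described below) as a term. FOS, FOSB and DUSP1 fell without that term and lost the call with it. JUN and JUNB also fell without the term and are not shown, though JUNB kept its call with it. The other entry of ATF3 is not shown either.
EGR1, chr5:138465229-138465478, plus strand: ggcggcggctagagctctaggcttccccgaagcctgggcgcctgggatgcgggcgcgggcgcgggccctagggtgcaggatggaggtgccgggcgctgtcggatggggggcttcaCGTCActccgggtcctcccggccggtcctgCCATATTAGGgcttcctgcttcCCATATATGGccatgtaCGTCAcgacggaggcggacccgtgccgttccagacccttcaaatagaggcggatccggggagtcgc
ATF3, chr1:212565157-212565406, plus strand: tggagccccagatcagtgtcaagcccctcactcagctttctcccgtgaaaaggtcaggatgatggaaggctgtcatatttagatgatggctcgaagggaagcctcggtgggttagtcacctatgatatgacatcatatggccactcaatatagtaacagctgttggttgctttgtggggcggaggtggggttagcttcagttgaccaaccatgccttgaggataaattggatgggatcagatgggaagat
FOS, chr14:75278578-75278827, plus strand: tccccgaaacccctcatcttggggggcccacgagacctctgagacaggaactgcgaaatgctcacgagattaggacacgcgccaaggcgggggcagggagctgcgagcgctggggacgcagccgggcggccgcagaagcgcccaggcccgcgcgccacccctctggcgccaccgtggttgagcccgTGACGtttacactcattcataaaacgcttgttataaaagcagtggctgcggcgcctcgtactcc
FOSB, chr19:45467746-45467995, plus strand: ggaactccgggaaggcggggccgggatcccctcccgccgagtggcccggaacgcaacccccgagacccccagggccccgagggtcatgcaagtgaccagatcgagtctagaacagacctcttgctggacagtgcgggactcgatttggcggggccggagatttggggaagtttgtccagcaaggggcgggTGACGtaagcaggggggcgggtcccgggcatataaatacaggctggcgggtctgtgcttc
DUSP1, chr5:172771196-172771445, minus strand: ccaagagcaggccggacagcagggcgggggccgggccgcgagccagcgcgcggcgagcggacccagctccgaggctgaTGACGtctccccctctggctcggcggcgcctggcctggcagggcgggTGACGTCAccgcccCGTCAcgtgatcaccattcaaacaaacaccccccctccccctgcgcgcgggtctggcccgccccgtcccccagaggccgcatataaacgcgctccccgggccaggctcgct

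The TGACG core was found in 7 of the 9 members with a promoter entry (FOS, FOSB, JUN, JUNB, EGR1, DUSP1 and IER2). Of 35116 promoters of the same length 21.2% held it. These 9 members had 11 entries, and a member counted if any entry matched, while the shares of promoters are per entry. In FOS the core began 64 bases and in FOSB 60 bases before the annotated start. EGR1 had 2 cores, the first 135 bases before the start. DUSP1 had 4, of which 2 overlap in the full palindrome TGACGTCA that begins 125 bases before the start and that 1.65% of promoters hold. Within these 250 bases, CArG boxes were found in EGR1 only among these 9 genes, against 1.16% of promoters with at least 1. EGR1 held 2 copies, the first beginning 105 bases before the start. Neither entry of ATF3 nor either entry of NR4A1 held a core or a CArG box in this window. Only 250 bases before the listed starts were searched, so sites farther out or at other starts of a gene would be missed. The counts describe this window and do not show that a gene lacks a site. The AP-1 site TGANTCA was found in 0 of the 9 genes, against 6.57% of promoters. The TATA box TATAAA, searched on the gene's strand only, was found in 5 (FOS, FOSB, JUNB, DUSP1 and ATF3), against 6.8% of promoters. The EGR site GCGNGGGCG was found in EGR1 alone, against 8.41%.

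Total counts per library ran from 23502519 to 44815552. The markers of hepatocyte-like cells were present, with 9 of 9 above a mean of 1 CPM (reads scaled to a common library size) and a summed level of 34600 to 42800 CPM in control and 28200 to 29500 CPM at 1000 µM. Of the 5 fibroblast markers 1, PDGFRB, was above 1 CPM, the other 4 did not exceed 0.0611 CPM in any library, and the list's sum was 3.18 to 3.85 CPM in control and 18.2 to 23.5 CPM at 1000 µM. Of the 5 leukocyte markers LYZ and CD68 were above 1 CPM (sum 936 to 1060 CPM in control and 1390 to 1920 CPM at 1000 µM), CD3E was at 0 in all libraries, and PTPRC did not exceed 0.0383 CPM. The 2 endothelial markers in the table summed to at most 0.283 CPM, and the cholangiocyte list summed to 337 to 416 CPM in control and 259 to 268 CPM at 1000 µM. The part of these shifts in the results below was not tested. Libraries also fell into 3 sets by their mitochondrial mRNAs, which the labels do not explain. Set A held 11 libraries (all of 0, 0.01 and 0.1 µM, and replicates 1 and 2 at 1 µM), with 9.93% to 14.2% mitochondrial reads. Set B held 7 (replicate 3 at 1 µM, all of 10 µM, replicate 2 at 100 µM, replicates 1 and 2 at 1000 µM), with 4.7% to 4.93%. Set C held 3 (replicates 1 and 3 at 100 µM, replicate 3 at 1000 µM), with 11.7% to 12.8%. Dose and set cannot be told apart where they coincide, so the comparisons were also fitted with the set as a term of the model, and 1000 µM was compared with 10 µM within set B. Of the doses, 1 µM alone has libraries in set A and in another set, so every value at 10, 100 or 1000 µM against control with the set term rests on replicate 3 at 1 µM for the shift between sets, and calls kept or lost in that fit carry this limit. The comparison of 1000 with 100 µM does not, since both doses have libraries in sets B and C.

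In untreated cells the members spanned a wide range of levels per transcript length (RPKM, the CPM divided by the exon length in kilobases, with GENCODE 29 lengths, mean ± SD, n = 3). DUSP1 was highest at 22.8 ± 2.05 RPKM. JUN (15 ± 1.1), JUNB (14.6 ± 0.87), FOS (14.3 ± 1.46) and IER2 (14 ± 2.24 RPKM) followed and did not differ beyond their spread. EGR1 (7 ± 1.98) and FOSB (6.92 ± 0.679 RPKM) formed the next level, then FOSL1 at 5.46 ± 0.365 RPKM. NR4A1 stood at 1.94 ± 0.38 RPKM and ATF3 was lowest at 0.836 ± 0.0834 RPKM. At 1000 µM the order had changed: IER2 (15.5 ± 1.32) and EGR1 (13 ± 2.73 RPKM) were at the top, DUSP1 stood at 11.1 ± 1.71 RPKM, ATF3 had risen to 2.62 ± 0.148 RPKM, and FOSB had fallen to 1.47 ± 0.541 RPKM, beside NR4A1 at 1.43 ± 0.53 RPKM.

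**Figure D1:**
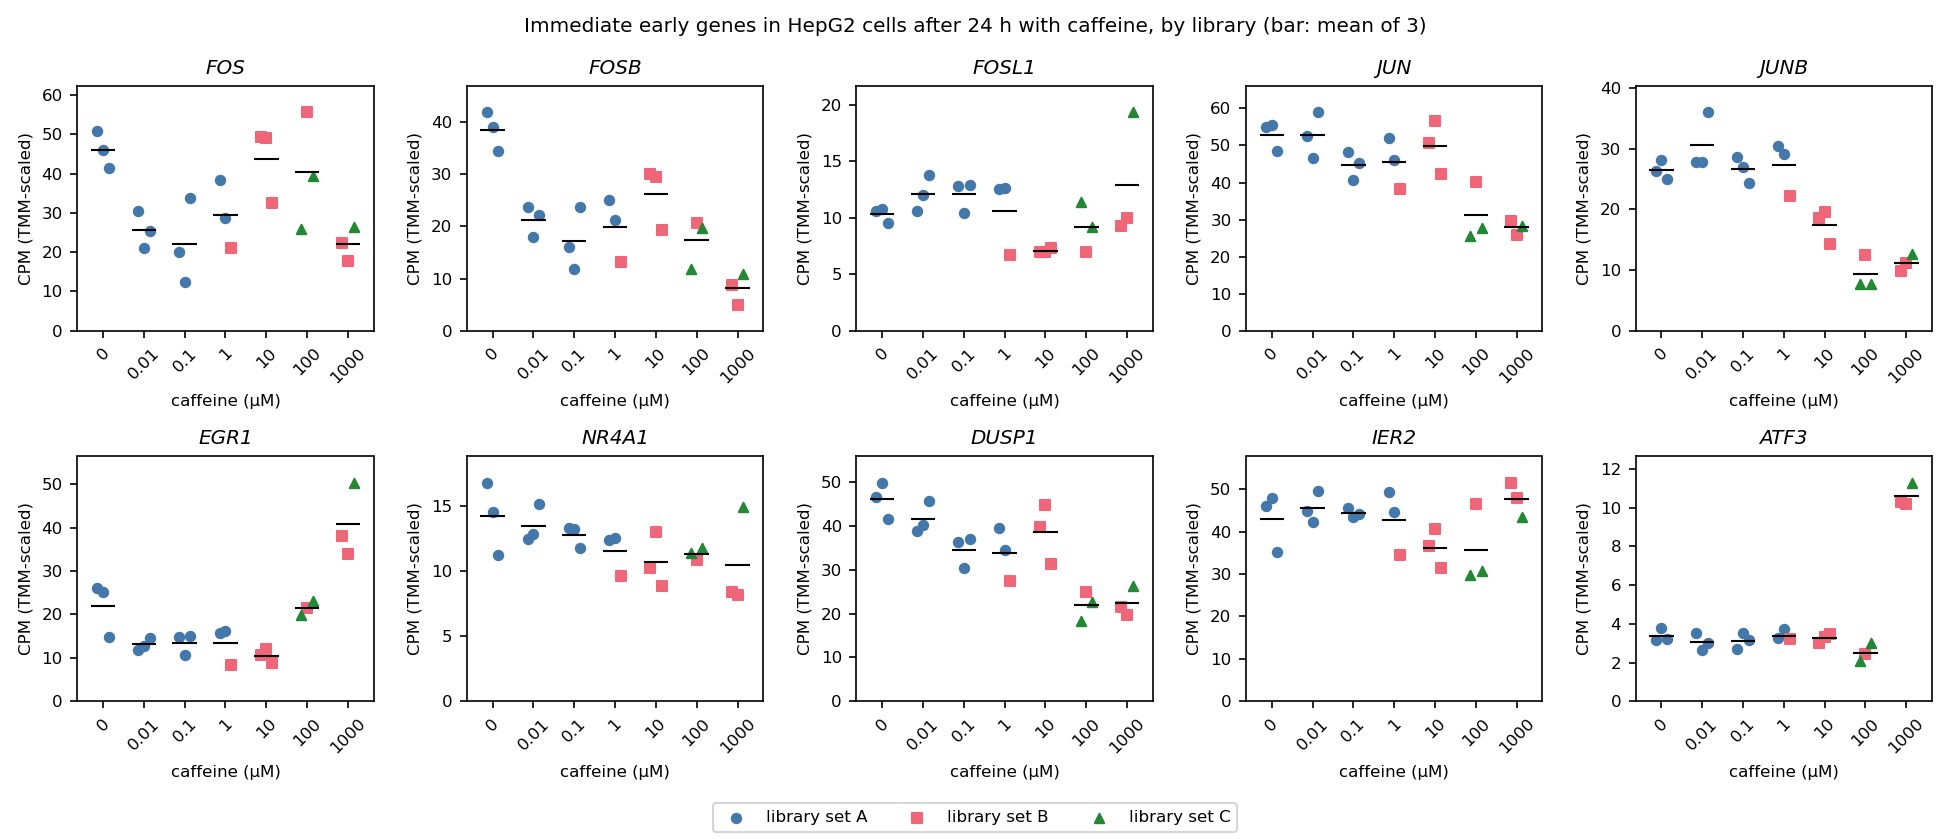
Level of each of the 10 genes in each of the 21 libraries, in TMM-scaled CPM (vertical axes from 0), by caffeine dose in µM. Points are libraries, with shape and colour for the library set, and bars are group means of 3. ATF3 and EGR1 at 1000 µM lie above every other library of their gene, and FOSB at 1000 µM lies below every other library.

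At 1000 µM, 7 of the 10 members differed from control. FOS, FOSB, JUN, JUNB and DUSP1 fell, by 1.89-fold (JUN) to 4.72-fold (FOSB), while EGR1 rose 1.85-fold and ATF3 3.12-fold. Calls here and below are at an adjusted p under 0.05, from edgeR's quasi-likelihood fit with Benjamini-Hochberg adjustment over all features. The same comparison called 57.6% of all 17951 features tested (28.5% higher and 29.1% lower), so 2 of 10 higher and 5 of 10 lower stand against that background. The members' median log2 fold change was -0.68, against -0.007 over all features. The 3 libraries at 1000 µM lay above all 3 controls for 2 members and below them for 5, against 28.1% and 28.5% of features. In these bulk samples, fewer cells that express a gene and less RNA per cell cannot be told apart.

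The 3 FOS family genes among the members (FOS, FOSB and FOSL1, whose proteins pair with JUN proteins in AP-1) did not move as a block. FOSL2, the remaining gene of the family, was not called at 1000 µM (0.14, adjusted p 0.265). FOS (ENSG00000170345.10, chr14:75278774-75282230 in GENCODE 29, GRCh38) stood at 50.9, 46.1 and 41.4 CPM in the 3 controls and at 22.4, 17.6 and 26.4 CPM at 1000 µM. The groups did not overlap. Its log2 fold change was -1.06 ± 0.33 (SE; adjusted p 0.0111), without replicate 2 at 1000 µM it was -0.92 (adjusted p 0.053), and without the libraries of set B, which leaves 1 library at 1000 µM whose spread is taken from the other groups, it was -0.8 (adjusted p 0.223). Between these doses FOS had no steady course. It stood at 30.5, 21 and 25.4 CPM at 0.01 µM, at 20, 12.5 and 33.8 CPM at 0.1 µM and at 38.4, 28.8 and 21.1 CPM at 1 µM. The values were 49.3, 49.1 and 32.6 CPM at 10 µM and 25.9, 55.6 and 39.4 CPM at 100 µM. The libraries at 0.01, 0.1 and 1 µM were all below the controls, while those at 10 and 100 µM overlapped them, and none of these doses passed the test. Once the set was a term, the value at 1000 µM was -0.31 ± 0.62 (adjusted p 0.739).

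FOSB (ENSG00000125740.14, chr19:45467995-45475179) showed the largest fall among the members. Its level was 41.9, 39.1 and 34.4 CPM in control and 8.7, 4.92 and 10.9 CPM at 1000 µM. Every 1000 µM library was under every other library in the series. The log2 fold change was -2.24 ± 0.32 (adjusted p 1.38e-05). At every intermediate dose the 3 libraries were below the 3 controls. From 0.01 to 100 µM, the group means were 21.2 ± 2.94, 17.2 ± 5.99, 19.8 ± 6.12, 26.2 ± 6.07 and 17.4 ± 4.87 CPM (SD, n = 3). Of these 5 doses, only 100 µM passed the test, at -1.14 ± 0.3 (adjusted p 0.00562). In the fit with the set term, the value at 1000 µM was -1.44 ± 0.55 (adjusted p 0.055), and at 100 µM it was -0.36 (adjusted p 0.735). Without the libraries of set C, which leaves 1 library at 100 µM whose spread is taken from the other groups, the value there was -0.89 (adjusted p 0.127).

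FOSL1 (ENSG00000175592.8, chr11:65892049-65900573), which encodes FRA-1, a FOS family protein without the transactivation domain of FOS, passed the test against control at no dose in the fit without a set term. It stood at 10.6, 10.8 and 9.51 CPM in control and at 9.26, 9.99 and 19.3 CPM at 1000 µM. The high value was replicate 3, the set C library, while replicate 2 was within the control range and replicate 1 just under it. The log2 fold change was 0.31 ± 0.26 (adjusted p 0.311), and it was -0.1 without that library (adjusted p 0.701). In set B, all 3 libraries at 10 µM (6.93, 6.98 and 7.29 CPM), replicate 3 at 1 µM (6.73) and replicate 2 at 100 µM (6.93 CPM) were under every set A library, the lowest of which was 9.51 CPM. Given the dose, FOSL1 differed between sets (adjusted p 4.06e-05). In the model holding the set FOSL1 was higher at 1000 µM than in control, by 0.88 ± 0.22 (adjusted p 0.00422), and without the libraries of set B, which leaves 1 library at 1000 µM, by 0.91 (adjusted p 0.000233). At 10 µM it was called lower with only the 2 groups in the fit and without the libraries of set C.

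Within the summed RPKM of FOS, FOSB and FOSL1, without FOSL2, FOSB took 26% ± 0.179 in control and 9.65% ± 2.04 at 1000 µM (SD, n = 3). FOSL1 took 20.5% ± 0.97 in control and 44.2% ± 6.94 at 1000 µM, and FOS took 53.5% ± 0.872 and 46.2% ± 5.82. The ranges of the 3 libraries did not overlap between control and 1000 µM for any of the 3 shares. FOSL1 also took 35.6% ± 5.67 at 0.01 µM, 40.9% ± 8.29 at 0.1 µM and 30.7% ± 3.35 at 1 µM, above the control range. It took 17.6% ± 4.04 at 10 µM and 25.3% ± 11.3 at 100 µM. The level of FOSL1 itself passed at no dose in the fit without a set term. The summed RPKM was 26.6 ± 2.44 in control and 15.1 ± 4.6 at 1000 µM. These shares were described and not tested.

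JUN and JUNB, the JUN family members among the 10, fell at the upper doses. JUN (ENSG00000177606.6, chr1:58780788-58784327), the strongest activator of its family, stood at 55, 55.4 and 48.4 CPM in control, at 25.6, 40.2 and 27.6 CPM at 100 µM, and at 29.7, 26 and 28.2 CPM at 1000 µM. Both upper doses were entirely below control, and replicate 2 at 100 µM, the set B library, was the highest of those 6 libraries. JUN's log2 fold change was -0.76 ± 0.15 at 100 µM (adjusted p 0.000488) and -0.92 ± 0.15 at 1000 µM (adjusted p 4.35e-05). Up to 10 µM, group means lay between 44.7 ± 3.91 and 52.8 ± 6.16 CPM and no dose passed the test. With the set as a term, JUN was at -0.23 at 100 µM (adjusted p 0.582) and at -0.46 ± 0.23 at 1000 µM (adjusted p 0.127), and without the libraries of set C (1 library left at 100 µM) it was at -0.39 at 100 µM (adjusted p 0.0939).

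JUNB (ENSG00000171223.6, chr19:12791496-12793315), a JUN protein with weaker transactivation, fell from 10 µM on. It stood at 26.4, 28.2 and 25 CPM in control, at 18.5, 19.6 and 14.2 CPM at 10 µM, and at 7.68, 12.6 and 7.68 CPM at 100 µM. At 1000 µM it was at 9.8, 11.2 and 12.7 CPM, all below control and overlapping the 100 µM values. The log2 fold changes were -0.6 ± 0.18 at 10 µM (adjusted p 0.0279), -1.5 ± 0.18 at 100 µM (adjusted p 2.21e-06) and -1.24 ± 0.18 at 1000 µM (adjusted p 8.44e-06). The fall at 100 and 1000 µM also passed with the set as a term, at -0.93 ± 0.3 (adjusted p 0.0373) and -0.74 ± 0.29 (adjusted p 0.0498), but that at 10 µM did not (-0.17, adjusted p 1). The 10 µM call was also lost without replicate 1 or 2 of the control or replicate 1 or 3 at 10 µM, with values of -0.47 to -0.65 and adjusted p of 0.0632 to 0.127. JUNB's share of the RPKM of JUN and JUNB was 49.4% ± 0.987 in control, 40.5% ± 1 at 10 µM, 36.6% ± 1.37 at 100 µM and 43.8% ± 4.11 at 1000 µM (SD, n = 3).

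EGR1 (ENSG00000120738.8, chr5:138465490-138469315), the member with CArG boxes in the window above, was called lower than control at 10 µM and higher at 1000 µM. It stood at 26, 25.1 and 14.8 CPM in control, where replicate 3 was low. Group means were 13.1 ± 1.42, 13.5 ± 2.45 and 13.4 ± 4.37 CPM at 0.01, 0.1 and 1 µM, against 22 ± 6.22 CPM in control (SD, n = 3). None of these doses passed in the fit without a set term. At 10 µM EGR1 was at 10.7, 12.1 and 8.83 CPM, all below control. At 100 µM it was at 19.8, 21.4 and 23 CPM, within the control range. At 1000 µM the level was 38.1, 33.9 and 50.3 CPM, above every other library. The log2 fold change was -1.06 ± 0.24 at 10 µM (adjusted p 0.00933), -0.04 ± 0.23 at 100 µM (adjusted p 0.902) and 0.89 ± 0.23 at 1000 µM (adjusted p 0.00339). In the fit with the set term it was -0.14 at 10 µM (adjusted p 1), 0.73 ± 0.37 at 100 µM (adjusted p 0.198) and 1.72 ± 0.36 at 1000 µM (adjusted p 0.00127), so the rise at 1000 µM was in both fits and the fall at 10 µM in the first only.

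NR4A1 (ENSG00000123358.20, chr12:52022832-52059507), also called NUR77, passed the test against control at no dose in either fit over the 21 libraries. It stood at 16.8, 14.5 and 11.2 CPM in control and at 8.34, 8.11 and 14.9 CPM at 1000 µM. The set C library at 1000 µM was within the control range, and both set B libraries were below it. Its log2 fold change was -0.45 ± 0.2 (adjusted p 0.0616), and -0.27 ± 0.29 with the set as a term (adjusted p 0.509). It was called lower at 1000 µM by limma-voom and without control replicate 3, replicate 3 at 1000 µM or the libraries of set C. Group means at the 5 doses between ran from 10.7 ± 2.09 to 13.4 ± 1.44 CPM.

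DUSP1 (ENSG00000120129.6, chr5:172768090-172771195), the phosphatase that ends p38, JNK and ERK signalling and so limits the induction of the other members, fell at 100 and 1000 µM. It stood at 46.6, 49.9 and 41.6 CPM in control, at 18.3, 25 and 22.6 CPM at 100 µM, and at 21.4, 19.6 and 26.3 CPM at 1000 µM. Both upper groups were entirely below control and overlapped each other. The log2 fold changes were -1.07 ± 0.16 (adjusted p 1.82e-05) and -1.04 ± 0.16 (adjusted p 1.24e-05). In the model holding the set they were -0.66 ± 0.27 (adjusted p 0.104) and -0.63 ± 0.26 (adjusted p 0.064).

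IER2 (ENSG00000160888.7, chr19:13150415-13154908), a nuclear protein of the early serum response, passed the test against control at no dose in the fit without a set term. It stood at 46, 48 and 35.2 CPM in control and at 51.6, 48 and 43.5 CPM at 1000 µM, and the groups overlapped. Its log2 fold change was 0.15 ± 0.16 (adjusted p 0.451). At 100 µM the set B library was at 46.5 CPM and both set C libraries at 29.7 and 30.7 CPM, and given the dose the sets differed (adjusted p 0.00972). With the set as a term, IER2 was higher at 1000 µM than in control by 0.73 ± 0.21 (adjusted p 0.0108). At 100 µM it was called lower without replicate 2 of that dose, its set B library, and without all libraries of set B.

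ATF3 (ENSG00000162772.17, chr1:212565334-212620777), a target of ATF4 in the integrated stress response, was flat over the first 5 doses and rose at the last. From 0 to 10 µM its group means were 3.06 ± 0.438 to 3.38 ± 0.337 CPM (SD, n = 3). At 100 µM it was at 2.06, 2.45 and 3 CPM, all below the control values of 3.15, 3.77 and 3.22 CPM, and at 1000 µM it was at 10.3, 10.2 and 11.3 CPM. The 1000 µM libraries of sets B and C were close to each other and above every other library. The log2 fold change at 1000 µM was 1.64 ± 0.15 (adjusted p 1.42e-08), and with the set as a term 1.74 ± 0.27 (adjusted p 4.25e-05). The lower value at 100 µM, -0.44 ± 0.15 (adjusted p 0.0234), lost its call under 8 of the alternatives tried, among them the set as a term (-0.38, adjusted p 0.402) and leaving out control replicate 2 (-0.35, adjusted p 0.107) or replicate 1 or 2 at 100 µM (adjusted p 0.12 and 0.0571).

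**Figure D2:**
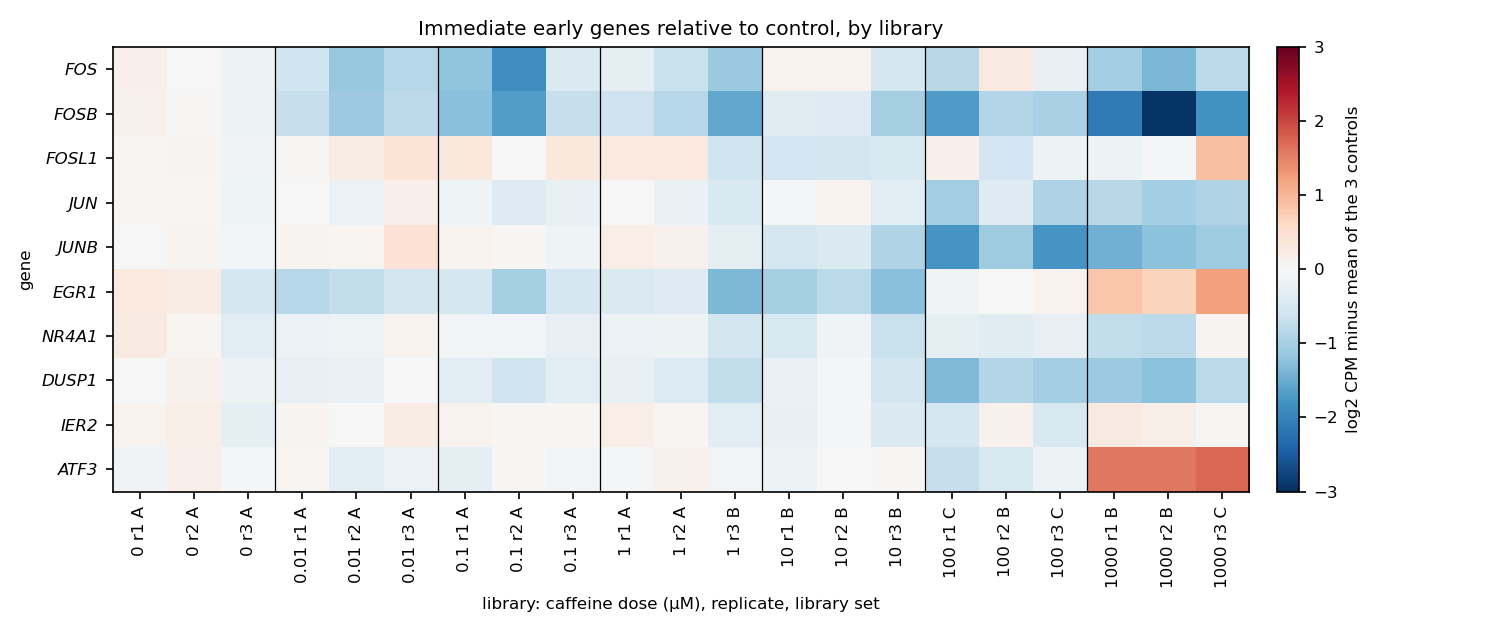
Level of each of the 10 genes (rows) in each of the 21 libraries (columns, named by dose in µM, replicate and library set), as log2 CPM minus the mean of the 3 control libraries (colour scale from -3 to 3). Blue cells for FOS and FOSB begin at 0.01 µM, those for JUN, JUNB and DUSP1 are concentrated at 100 and 1000 µM, and the deepest red cells of ATF3 and EGR1 are at 1000 µM.

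Below 10 µM no member passed the adjusted threshold of 0.05. At 0.01, 0.1 and 1 µM the counts at an unadjusted p under 0.05 were 3, 4 and 3 of 10 by edgeR's quasi-likelihood test, against 15%, 9.48% and 15.7% of all features at the same unadjusted threshold. Adjusted calls were 0 of 10 at each, against 0.0279%, 0% and 0.106% of features. FOS, FOSB and EGR1 made up the 3 at 0.01 µM, with log2 fold changes of -0.85 (adjusted p 0.255), -0.86 (adjusted p 0.222) and -0.75 (adjusted p 0.174). DUSP1 was the fourth at 0.1 µM, at -0.41 (adjusted p 0.431). The 3 libraries of a dose were all below the controls for 3 members at 0.01 µM, 4 at 0.1 µM and 3 at 1 µM, against 13%, 11% and 8.85% of features. All libraries of 0, 0.01 and 0.1 µM are in set A, and these doses share 1 control group, so their values are not independent of each other. DESeq2's Wald test called 0, 1 and 1 members at these doses, in both cases FOSB, and limma-voom 0, 0 and 0. The share of all features that these tests called was not counted, so their counts have no background. In the fit with the set term 1 member (EGR1, -0.76 ± 0.19, adjusted p 0.0445) passed at 0.01 µM, where 3.02% of features did, and 0 passed at 0.1 and 1 µM, where 0.0223% and 0.629% did.

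At 10 µM 2 members were called, JUNB and EGR1, both lower, against 14.8% of features called and 7.49% called lower. Their levels at that dose are given above. The 10 µM libraries lay below all controls for 4 members (FOSB, FOSL1, JUNB and EGR1), against 19.3% of features. Set A holds every control and set B every library of 10 µM. Once the set was a term, 0 members passed by edgeR's quasi-likelihood test (0 at an unadjusted p under 0.05), as did 0.0279% of features. At 100 µM 5 members were called, all lower (FOSB, JUN, JUNB, DUSP1 and ATF3), against 46.6% of features called and 22.9% called lower. The libraries of 5 members lay below all controls there, against 25.3% of features. In the model holding the set only JUNB passed among the 10 at that dose, against 17.3% of features.

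With the set as a term at 1000 µM, 5 members passed (ATF3, EGR1, FOSL1 and IER2 higher, JUNB lower), against 38% of features (18.2% higher and 19.8% lower). The log2 fold changes of FOSB, JUNB, DUSP1, JUN, FOS and NR4A1 against control were smaller in size with the term than without it, those of EGR1, FOSL1 and IER2 were larger, and that of ATF3 moved by 0.1. In the joint test of the 6 doses 7 members passed, against 73.6% of features, and 9 passed with the set as a term (NR4A1 did not), against 59.8%. Given the dose, 3 members differed between sets (FOSL1, IER2 and EGR1), against 29.6% of features.

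**Figure D3:**
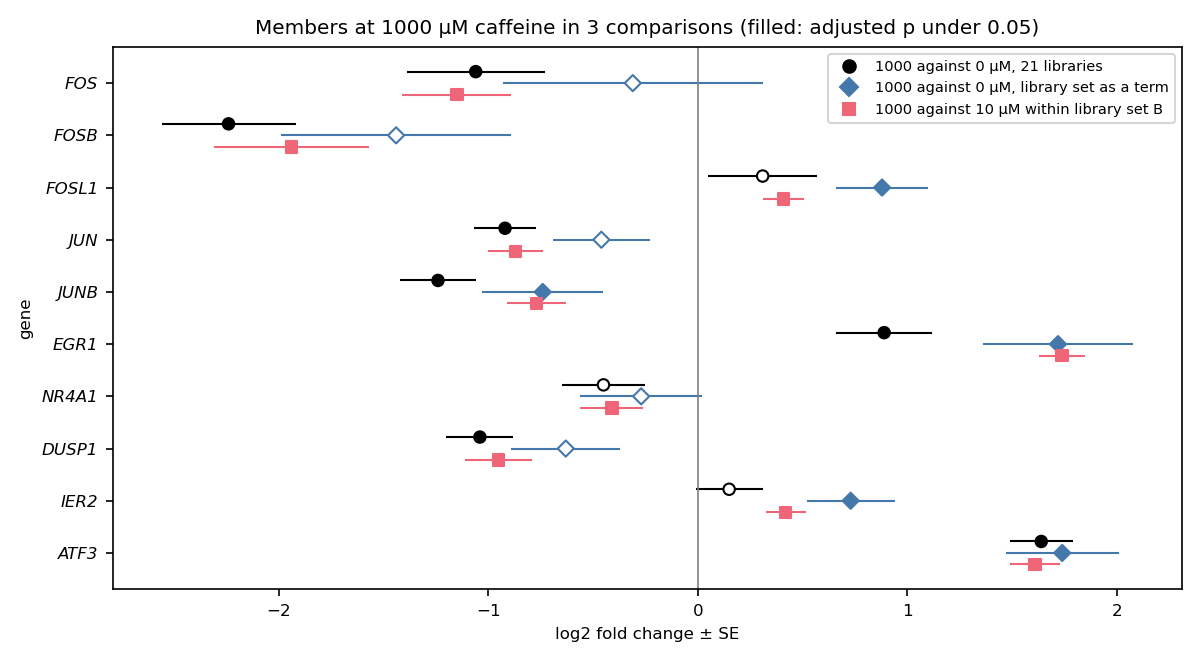
Log2 fold change ± SE of each of the 10 genes in 3 comparisons: 1000 against 0 µM over 21 libraries (circles), the same with the set as a term (diamonds), and 1000 against 10 µM within set B (squares). Filled symbols passed an adjusted p of 0.05; ATF3 and EGR1 are to the right of 0 and filled in all 3, JUNB is to the left and filled in all 3, and FOS, FOSB, JUN and DUSP1 are open with the set term.

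Within set B, 1000 µM (replicates 1 and 2) could be compared with 10 µM (3 replicates) with no set difference, and neither group is the control. All 10 members passed by edgeR's quasi-likelihood test, 4 higher and 6 lower, against 65.1% of the 18323 features tested there (31.5% higher and 33.6% lower). EGR1 rose from 10.7, 12.1 and 8.83 CPM to 38.1 and 33.9 CPM, a log2 fold change of 1.74 ± 0.11 (adjusted p 4.97e-07). ATF3 rose from 3, 3.34 and 3.46 CPM to 10.3 and 10.2 CPM, a log2 fold change of 1.61 ± 0.12 (adjusted p 1.13e-07). FOSL1 (0.41 ± 0.097) and IER2 (0.42 ± 0.096) rose by less. Among the falls, FOSB changed by -1.94 ± 0.37, FOS by -1.15 ± 0.26, DUSP1 by -0.95 ± 0.16, JUN by -0.87 ± 0.13, JUNB by -0.77 ± 0.14 and NR4A1 by -0.41 ± 0.15. The calls of FOS, FOSB and NR4A1 were lost in some fits that left out 1 library. Without replicate 1 at 10 µM they were at -1.06, -1.84 and -0.44 (adjusted p 0.063, 0.0554 and 0.0549), and without replicate 2 at 10 µM at -1.05, -1.84 and -0.23 (adjusted p 0.0969, 0.0733 and 0.0893). Without replicate 2 at 1000 µM FOS was at -0.99 (adjusted p 0.0732) and NR4A1 at -0.39 (adjusted p 0.143), and without replicate 1 at 1000 µM NR4A1 was at -0.42 (adjusted p 0.149).

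Between the upper doses, 1000 against 100 µM, 5 members differed, with ATF3, EGR1 and IER2 higher and FOS and FOSB lower, against 44% of features (21.8% higher and 22.3% lower). ATF3 rose by 2.08 ± 0.15 on the log2 scale (adjusted p 1.76e-09) and EGR1 by 0.93 ± 0.23 (adjusted p 0.00363). FOSB fell by 1.1 (adjusted p 0.00992) and FOS by 0.87 (adjusted p 0.0411), and IER2 rose by 0.42 (adjusted p 0.0442). JUN (-0.16 ± 0.15), JUNB (0.25 ± 0.18) and DUSP1 (0.03 ± 0.16), already low at 100 µM, did not pass. The calls of FOS and IER2 were lost in 5 and 13 of the fits that left out 1 library, and without replicate 2 at 1000 µM FOSB was at -0.84 (adjusted p 0.0557) and 2 members were called. Without the libraries of set C, which leaves 1 library at 100 µM, EGR1 was at 0.74 (adjusted p 0.143) and IER2 at 0.09 (adjusted p 0.772), and JUN was called lower. Without those of set B, which leaves 1 library at 1000 µM, FOSB was at -0.52 (adjusted p 0.436) and FOS at -0.3 (adjusted p 0.748), and FOSL1 and JUNB were called higher. With the set as a term 6 members passed, FOSL1 (0.69 ± 0.12) being added, against 46.3% of features (22.4% higher and 23.9% lower).

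The other genes of the pathway were taken as 4 lists. Of 20 other immediate early transcription factors 15 were tested, and at 1000 µM 10 were higher and 2 lower than control, with a median log2 fold change of 0.71, where 28.5% and 29.1% of all features were called higher and lower. At 100 µM 3 were higher and 6 lower (median -0.32), beside 23.6% and 22.9% of all features, and 2 and 3 with the set as a term, where 17.3% were called. At 10 µM 0 were higher and 3 lower, beside 14.8% of all features called and 7.49% called lower, and 0 and 0 with the term (0.0279% called). ATF4, the translation-controlled activator of the integrated stress response, rose from 429, 474 and 444 CPM to 1040, 1110 and 884 CPM (log2 fold change 1.17 ± 0.1, adjusted p 1.04e-08). KLF4, a zinc finger factor of differentiation, rose from 0.795, 0.987 and 0.805 CPM to 3.85, 3.86 and 5.18 CPM (2.3 ± 0.27, adjusted p 4.81e-07). JUND, the third JUN family gene, fell from 66.2, 76.5 and 83 CPM to 16.9, 18.3 and 28.5 CPM (-1.83 ± 0.19, adjusted p 2.21e-07). The groups did not overlap for any of these 3 genes. All 3 also passed with the set as a term, at 1.13, 3.37 and -1.47, and so did MYC, the growth regulator, at 1.08 ± 0.17 (0.54 ± 0.13 without the term). In that fit 7 genes of the list were higher and 1 lower (18.2% and 19.8% of all features), and within set B 11 were higher and 2 lower (31.5% and 33.6%).

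Of 24 other immediate early response genes, which are not transcription factors of the first list, 20 were tested. At 1000 µM 4 were higher and 10 lower, with a median of -0.42, beside 28.5% and 29.1% of all features. At 100 µM 1 was higher and 15 lower, beside 23.6% and 22.9%, and with the set as a term 0 were higher and 7 lower, where 17.3% of all features were called. BTG2, an antiproliferative factor, fell from 18.9, 19.7 and 16.9 CPM to 3.5, 3.58 and 3.98 CPM (-2.33 ± 0.096, adjusted p 4.19e-13). CCN1, a matrix protein that YAP and serum response factor induce, fell from 246, 275 and 230 CPM to 33.1, 42.5 and 34.2 CPM at 100 µM and stood at 54.6, 47.8 and 47.6 CPM at 1000 µM (-2.32 ± 0.11, adjusted p 2.14e-12). ID2, an inhibitor of helix-loop-helix factors, fell from 380, 386 and 371 CPM to 97.9, 107 and 126 CPM (-1.78 ± 0.15, adjusted p 5.06e-09). The groups were far apart for all 3, and with the set as a term the values were -2.28, -2.07 and -1.15, each past the threshold. In that fit 4 genes of this list were higher and 6 lower, beside 18.2% and 19.8% of all features. At 10 µM 0 of its genes were higher and 8 lower, beside 14.8% of all features called and 7.49% called lower. With the set as a term 0 passed there, beside 0.0279% of all features.

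The feedback inhibitors, to which DUSP1 would also belong by function, had the highest median of the 4 lists at 1000 µM. Of 18 genes (phosphatases, sprouty proteins, mRNA decay factors and co-repressors) 17 were tested, and at 1000 µM 12 were higher and 5 lower, with a median of 1.01, beside 28.5% and 29.1% of all features. The lower genes were the mRNA decay factors ZFP36 (-0.74), ZFP36L1 (-0.81) and ZFP36L2 (-0.26) and the phosphatases DUSP8 (-1.49) and DUSP10 (-1.57). With the set as a term 12 were higher and 2 lower (DUSP8 and DUSP10), beside 18.2% and 19.8%. ERRFI1, an inhibitor of the EGF receptor, rose from 355, 383 and 424 CPM to 2170, 2240 and 2080 CPM (2.48 ± 0.088, adjusted p 8.94e-14). SPRY4, an inhibitor of receptor tyrosine kinase signalling, rose from 24.4, 24.2 and 22.6 CPM to 106, 100 and 111 CPM (2.15 ± 0.085, adjusted p 2.63e-13). SPRED1, which recruits neurofibromin to RAS, rose from 5.99, 5.71 and 7.78 CPM to 48.2, 49.9 and 36.6 CPM (2.8 ± 0.14, adjusted p 7.89e-12). For these genes too the groups did not overlap, and the values with the set as a term were 2.7, 2.21 and 2.48, all past the threshold. At 100 µM 9 genes of the list were higher and 4 lower, beside 23.6% and 22.9% of all features. With the set as a term 6 and 2 were, where 17.3% of all features were called. At 10 µM 3 were higher and 4 lower, beside 14.8% of all features called, and 0 passed with the term (0.0279% called).

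The 30 upstream kinases and transcription factors, all tested, had 10 genes higher and 9 lower at 1000 µM and a median of 0.08, shares near those of all features (28.5% and 29.1%). MET, the receptor of hepatocyte growth factor, rose from 104, 92 and 105 CPM to 228, 247 and 214 CPM (1.2 ± 0.092, adjusted p 2.01e-09). CREB1, the factor that binds the cAMP response element, rose from 26, 26.5 and 31.2 CPM to 60.7, 66.1 and 51.9 CPM (1.1 ± 0.095, adjusted p 1.04e-08). RPS6KA1, which encodes the kinase RSK1, fell from 160, 166 and 130 CPM to 77.1, 79.2 and 85.3 CPM (-0.92 ± 0.089, adjusted p 4.95e-08). Treated and control libraries did not overlap for any of them. PRKACA, a catalytic subunit of protein kinase A, was at 57.8, 66 and 57.8 CPM in control and at 30.8, 30 and 49 CPM at 1000 µM. Its log2 fold change was -0.73 ± 0.14 (adjusted p 0.00021), and -0.8 with the set as a term. PRKACB, of the same list, was not called in either fit (0.15 and -0.1). In the fit with the set term 7 genes were higher and 8 lower, beside 18.2% and 19.8% of all features. All 4 lists were chosen with results of these data known, so the counts describe them and lend no support to a direction.

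**Figure D4:**
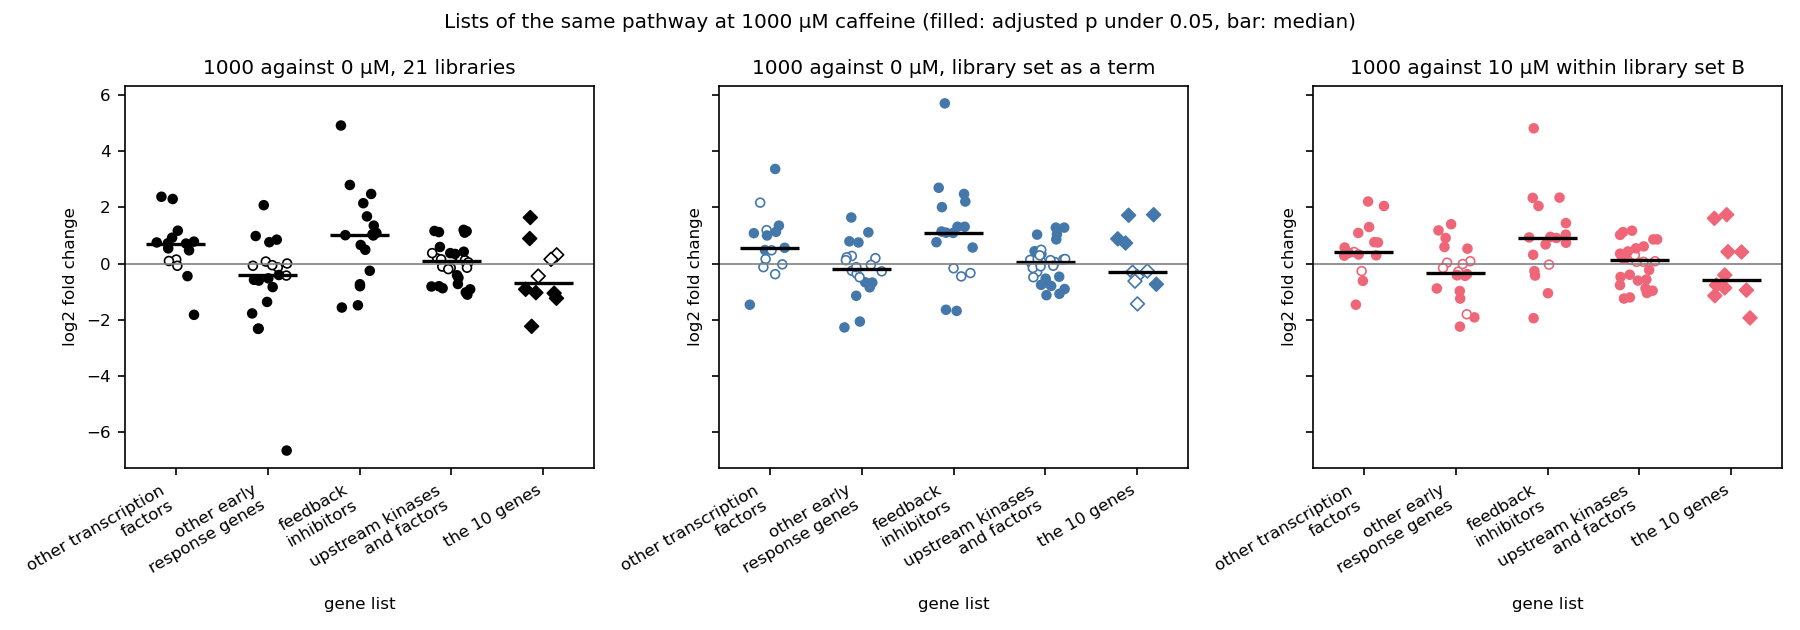
Log2 fold change of each tested gene of the 4 other lists (circles) and of the 10 genes (diamonds) at 1000 µM, in the same 3 comparisons as above, with a bar at each list's median. Filled symbols passed an adjusted p of 0.05; the medians of the feedback inhibitors (1.01, 1.1 and 0.91) are above 0 in all 3 panels and those of the 10 genes (-0.68, -0.29 and -0.59) below 0. The lowest circle of the left panel is APOLD1, which was called there only.

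Among the 45 pairs of members, the highest Pearson r of log2 CPM over the 21 libraries was that of JUN and DUSP1, 0.954 (0.872 over the 11 of set A and 0.967 over the 7 of set B). FOS and FOSB had the highest r in set A, 0.968 (0.767 over all and 0.897 in set B), and FOSL1 and ATF3 the highest in set B, 0.972 (0.263 over all and -0.383 in set A). EGR1 and FOSB, a pair chosen after its values were seen, had r = -0.335 over all libraries, 0.813 in set A and -0.688 in set B, so their relation turned with the libraries included. Among 10608 other named genes, each averaging 5 CPM or more, the gene most like both JUN and DUSP1 was RHOB, itself an early response GTPase (r = 0.971 and 0.956), which stood at 280 ± 19.6 CPM in control and 172 ± 12.6 CPM at 1000 µM (SD, n = 3). The pattern nearest to EGR1 was that of EIF3J (r = 0.892, but 0.503 in set A), nearest to JUNB that of KCTD5 (0.972) and nearest to ATF3 that of the antisense RNA DLGAP1-AS2 (0.97, but 0.432 in set A), whose level went from 10.6 ± 1.07 to 66.2 ± 8.53 CPM. The nearest to FOSL1 was PABPC1 (0.938), to NR4A1 PNPLA2 (0.868), to IER2 NFKBIL1 (0.845), to FOSB MINPP1 (0.814) and to FOS PRIMPOL (0.618). To the mean of the 10 members the nearest were PIAS4 (0.788), MIDN (0.778) and ZNF598 (0.765), with r of only 0.15, 0.318 and 0.41 in set B. The libraries share their dose, set and depth, so these r values describe likeness and carry no test, and the reads of an antisense RNA and its partner cannot be told apart where the use of strand is not known.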

How the data were processed

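Samples were grouped by the dose in their titles, in 7 groups of 3. The values are raw read counts per feature, as the authors deposited them. HISAT2, DESeq2 and GRCh38 are named in the submitters' processing notes, and the annotation release, counting tool and use of strand are not given in the sources used here. The table's other 21 sample columns were left out. Counts were filtered with filterByExpr (17951 features kept), scaled by TMM and tested in 1 fit over 21 libraries by the quasi-likelihood test of edgeR 4.0.16 (R 4.3.3), with Benjamini-Hochberg adjustment over all features and a threshold of 0.05. CPM values use TMM-scaled library sizes, and log2 CPM a prior count of 2. Library sets came from average-linkage clustering of 13 mitochondrial mRNAs at the highest mean silhouette (0.571). The fits were tested on simulated data. SDs give the spread of 3 libraries, which covers counting error too. SEs come from the fits, which share their estimate of the spread across groups. Alternatives used DESeq2 1.42.0, limma 3.58.1, other filters, a replicate block, and fits without 1 library or set. The counts of the 21 replicate pairs differed by more than sampling noise (lowest chi-square per gene, 3.59). This cannot tell separate cultures from separate libraries of 1 culture. Each library counted as 1 replicate, and the design text calls the replicates biological. GENCODE 29 gave gene lengths and coordinates, and the authors may have used another release.

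The members and lists were chosen with earlier results of these data known. All 10 members are named. Of each other list, up to 3 called genes with the smallest p at 1000 µM are named, and up to 3 in the fit with the set as a term. PRKACB and the lower feedback inhibitors are named besides, chosen after their values were seen. For likeness, the gene with the highest Pearson r to each member is named, and the 3 highest to the members' mean. One likeness result is not reported here.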

Additional observations from a re-analysis of the deposited data

How the results depend on the processing

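For the 33 member values called with or without the set term or within set B, 746 values under the alternatives kept their direction and side of the threshold, 64 lost the call, 6 gained it and 2 changed sign. Both were FOSL1 at 1000 µM against control (0.31, not called), at -0.11 without library set C and -0.1 without replicate 3 at 1000 µM. Over the fits that left out 1 library it ran from -0.1 to 0.5. In all, 14 of the dose comparisons of single members that were not called gained a call under at least 1 alternative, such as FOSB lower at 0.01, 0.1, 1 and 10 µM under 1 each. Values not called also changed sign with the set as a term, such as FOS at 10 µM (-0.08 to 0.59) and IER2 at 100 µM (-0.27 to 0.43). Adding the library set to the model gave 1 member called at 0.01 µM, 0 at 10 µM and 1 at 100 µM. For the other 4 lists it gave 7, 2, 0 and 24 called genes at 0.01, 1, 10 and 100 µM, against 0, 0, 25 and 47 without it. Over all features the share called went from 0.0279%, 0.106%, 14.8% and 46.6% without the term to 3.02%, 0.629%, 0.0279% and 17.3% with it. Under the alternatives that follow only members were counted. Their counts have no share of all features beside them and cannot be set against a background. Without any filter 1 member was called at 10 µM, 3 at 1000 against 100 µM and 8 between sets. With only the 2 groups in the fit, 1 was called at 0.01 µM, 4 at 10 µM and 3 at 1000 against 100 µM. DESeq2's Wald test called 1 at 0.1 µM and 1 at 1 µM. Without library set C 2 were called at 100 µM. The fits without set B or C, and those of the other lists without 1 library, were chosen after seeing the data. The cause of these shifts was not tested.

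Leaving out each library in turn, members called ranged from 0 to 0 for each of the doses 0.01, 0.1 and 1 µM. For 10 µM the range was 1 to 2, for 100 µM 4 to 5, and for 1000 µM 6 to 8. They ranged from 2 to 6 at 1000 against 100 µM (2 without replicate 2 at 1000 µM), 7 to 9 in the joint test, 7 to 10 within set B and 2 to 4 between sets. Without replicate 3 at 1 µM the fit between sets could not be made. Called genes of the other lists ranged from 0 to 0 at the 3 lowest doses. For 10 µM they were 4 to 30 (4 without replicate 3 of that dose), for 100 µM 40 to 55, and for 1000 µM 57 to 63. Replicate numbers did not pair the libraries (mean correlation of deviations -0.108 to 0.152 over 21 pairs of groups, with 9 of 63 library pairs over 0.1). With the replicate number as a block 2, 5 and 7 members were called at 10, 100 and 1000 µM. That fit also called 4 at 1000 against 100 µM, 10 within set B and 1 between sets. The counts in this paragraph too have no share of all features beside them. ATF3 had the fewest reads of the members, down to 55 in 1 library.

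Ranking likeness by Spearman's rho named another gene for, among others, FOSB (DHX29), FOSL1 (STAU1), NR4A1 (ATP13A1), IER2 (HLA-E) and ATF3 (SLC25A27). The joint test was not run with DESeq2.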

Other observations

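APOLD1, an early response gene of endothelial cells, was chosen here after its values were seen. It followed the library sets closely: it stood at 11.6 to 25.4 CPM in the 11 libraries of set A and at 0.128 to 1.71 CPM in the 10 of sets B and C. Among the 1 µM replicates it was at 20.1 and 23.5 CPM in set A and at 0.214 CPM in set B. Its log2 fold change at 1000 µM was -6.67 without and 0.19 with the set as a term.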
